A study of Mus musculus with 6 samples.

Results

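The interleukin-6 family of cytokines was examined through 10 genes: the cytokines Il6, Il11, Lif, Osm and Clcf1, the receptor chains Il6st, Il6ra, Lifr and Osmr, and the transcription factor Stat3. They were taken by gene symbol from a table of 55357 genes, and each symbol had 1 entry there. All 10 were among the 15023 genes that averaged at least 1 TPM (an abundance corrected for transcript length and scaled to 1 total in every library) and were tested. RNA came from tumours of KPC1242, a mouse pancreatic ductal adenocarcinoma line, grown under the skin of C57BL/6J mice from 250000 injected cells. From day 8 to day 12 the mice received either 2 mg of folinic acid (FA), a reduced folate, or phosphate-buffered saline (PBS) by mouth each day, and tumours were taken on day 14. There were 3 FA and 3 PBS tumours with 1 library each, and the series asked how FA alters the tumour microenvironment. All tumours derive from 1 transplanted line under the skin, which limits them as a model of a tumour arising in the pancreas. The sample descriptions begin alike within a treatment and differently between the treatments, so whatever that beginning marks and the treatment cannot be told apart. The labels do not state that each tumour came from its own mouse, and the p-values measure the spread between these 6 tumours.

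Cytokines of this family signal through a shared receptor chain, gp130, which Il6st encodes. Interleukin-6 and interleukin-11 first bind a receptor chain of their own, whereas leukaemia inhibitory factor and oncostatin M engage the chains encoded by Lifr or Osmr beside gp130. The receptors activate Janus kinases, which phosphorylate the transcription factor STAT3, and STAT3 induces the feedback inhibitor Socs3. In pancreatic tumours interleukin-6 and leukaemia inhibitory factor are known products of inflammatory fibroblasts, and macrophages and neutrophils are known sources of oncostatin M.

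The library of FA replicate 3 stood apart from the others. Its Pearson correlation with another tumour over all tested genes was 0.949 to 0.968, against 0.981 to 0.987 among the other 5. It also held the highest value of all 9 fibroblast, all 8 macrophage, all 7 endothelial and all 8 skeletal muscle markers. For the members, differences, ratios and ranks that it moved most are given with and without it, except that Osm was not tested without it. For pathway genes this is done for some only. Tumour epithelial markers (keratins, Epcam, Cdh1 and Muc1) summed to 5417 to 5850 TPM with FA and 4911 to 5793 TPM with PBS, so the labelled epithelial tumour was checked and its markers were abundant in every library. These are bulk tumours, in which fewer cells of a type and less RNA per cell cannot be told apart.

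Il6, Il11, Lif and Osm were each highest in FA replicate 3, and the first 3 of them are shown by the 250 bases upstream of their transcription start, because their levels were high together in that tumour. RefSeq windows on GRCm38.p6 were available for 8 of the 10 members, and Osm and Clcf1 had no entry. Capitals mark TGAGTCA, the consensus for AP-1 (the FOS and JUN factors), read on either strand, and in Il6 also GGANTTTCC, a form of the NF-kB consensus. Il6 is on the plus strand at chr5:30012864-30013113, Il11 on the minus strand at chr7:4778142-4778391, and Lif on the plus strand at chr11:4257318-4257567, each printed 5′ to 3′ along the gene.
Il6: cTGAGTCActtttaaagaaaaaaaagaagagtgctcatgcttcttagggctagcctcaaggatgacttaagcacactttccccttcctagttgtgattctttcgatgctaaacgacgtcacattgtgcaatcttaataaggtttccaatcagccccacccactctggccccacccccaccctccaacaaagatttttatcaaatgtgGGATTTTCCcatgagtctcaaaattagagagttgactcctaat
Il11: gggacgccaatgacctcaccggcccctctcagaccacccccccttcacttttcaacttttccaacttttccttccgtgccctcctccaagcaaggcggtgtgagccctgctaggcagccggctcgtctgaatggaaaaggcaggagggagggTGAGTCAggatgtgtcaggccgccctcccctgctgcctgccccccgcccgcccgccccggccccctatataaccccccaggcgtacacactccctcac
Lif: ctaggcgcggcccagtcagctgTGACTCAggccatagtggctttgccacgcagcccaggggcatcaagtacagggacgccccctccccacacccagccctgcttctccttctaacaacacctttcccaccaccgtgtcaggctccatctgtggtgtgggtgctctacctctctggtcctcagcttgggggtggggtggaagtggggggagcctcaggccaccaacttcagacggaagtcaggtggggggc
The AP-1 letters began 249 bases upstream of the start in Il6, 98 bases upstream in Il11 and 228 bases upstream in Lif, where they read TGACTCA on the gene's strand. A second Il11 window, at chr7:4782858-4783107, held no match. None of the windows of Il6st, Il6ra, Lifr, Osmr and Stat3 held the AP-1 letters, and 4.45% of all 32536 windows of this length did. Of these genes Il6ra was also highest in FA replicate 3, at 5.84 TPM against 5.77 TPM in PBS replicate 1. The NF-kB letters began 43 bases upstream in Il6 and were in no other member's window, against 1.07% of all windows. Other forms of the NF-kB consensus were not searched, so a window without these letters may hold another form. The STAT consensus TTCNNNGAA was in none of the members' windows and in 7.04% of all windows. These motifs were chosen after the windows and expression values had been seen, and a match describes letters in a window, not a bound site.

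Across the 6 tumours the family spanned a wide range of levels, and the order was led by 1 cytokine, the shared receptor and the transcription factor. On the TPM scale the means over 6 tumours were 89.6 for Clcf1, 81.8 for Stat3, 58.9 for Il6st, 24.0 for Osmr, 15.5 for Lifr, 14.2 for Lif, 5.22 for Il6ra, 2.89 for Il11, 2.07 for Il6 and 1.09 for Osm. Neighbours in this order whose ranges over tumours overlapped were Clcf1 and Stat3, Lifr and Lif, Il6ra and Il11, Il11 and Il6, and Il6 and Osm. In each of these pairs the gene with the higher mean was higher in 5 of 6 tumours. Within the FA group alone the mean of Lif exceeded that of Lifr, the reverse of the order over all 6.

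**Figure D1:**
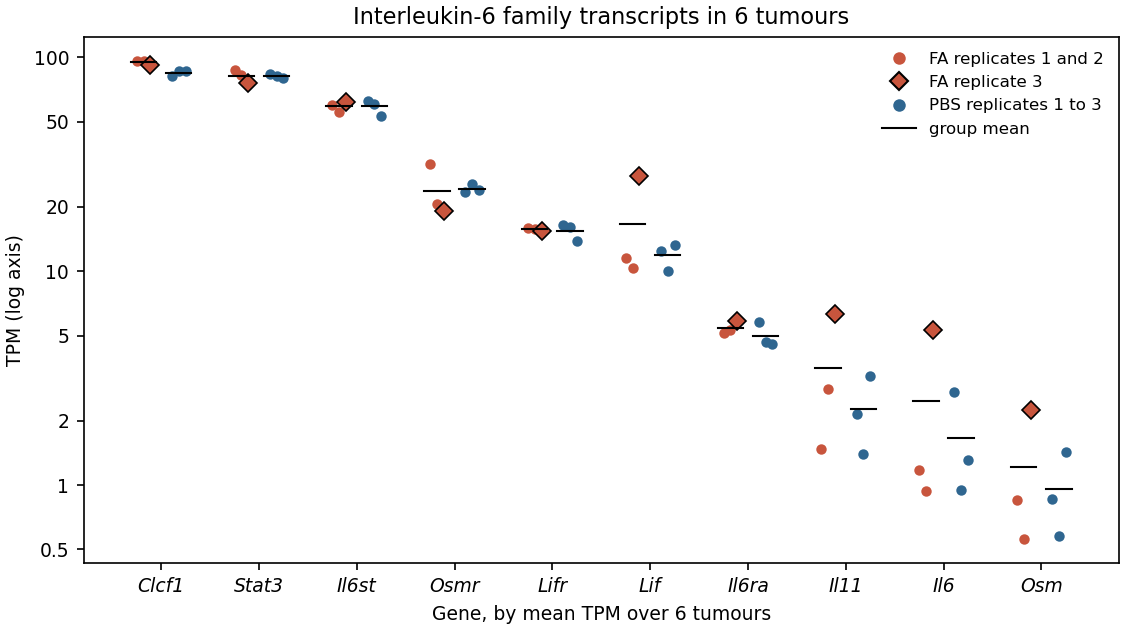
TPM (log axis) of each gene in each tumour, ordered by mean over 6 tumours; circles are tumours, diamonds mark FA replicate 3 and bars are group means. The diamond is the highest point for Lif, Il6ra, Il11, Il6 and Osm, and the FA points of Clcf1 lie above its PBS points.

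The first question was whether FA tumours differed from PBS tumours in these genes. None of the 10 members passed limma's test at an adjusted p under 0.05, and neither did any other gene: 0% of the 15023 tested genes were called, with a smallest adjusted p of 0.218. At an unadjusted p under 0.05 there was 1 member, Clcf1, where 1.28% of all tested genes (192) met that mark. Clcf1 was also the 1 member whose FA and PBS tumours did not overlap, against 4.69% of all tested genes in either direction and 2.48% with FA higher. FA had the higher mean on the log2 scale for 9 members and the lower for 1, and for 50.7% of all tested genes. The median log2 difference of the 10 members was 0.12, beside 0.0016 over all tested genes. Without FA replicate 3 it was 0.036 over the 9 members still tested, of which 5 had the higher and 4 the lower mean with FA, beside 0.013 and 55.5% with the higher mean over all genes.

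Interleukin-6 is the inflammatory cytokine after which the family is named. Il6 (ENSMUSG00000025746) measured 1.17, 0.94 and 5.33 TPM in FA replicates 1 to 3 and 2.73, 0.95 and 1.31 TPM in PBS replicates 1 to 3. The groups overlapped, with FA replicate 3 highest and FA replicate 2 lowest of all 6. Its means were 2.48 ± 2.47 TPM with FA and 1.66 ± 0.941 TPM with PBS (n = 3 per group, SD). The log2 difference was 0.22 ± 0.49 (SE), with a 95% interval of -0.95 to 1.40 and a limma adjusted p of 1.00. Without FA replicate 3 the log2 difference was -0.32 ± 0.30.

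Interleukin-11 is a cytokine of stromal cells that acts on epithelium and fibroblasts. Il11 (ENSMUSG00000004371) stood at 1.47, 2.81 and 6.27 TPM with FA and 2.15, 1.39 and 3.24 TPM with PBS, in replicate order. Again FA replicate 3 was highest and the groups overlapped. Group means were 3.52 ± 2.48 TPM for FA and 2.26 ± 0.930 TPM for PBS (n = 3 per group, SD), a log2 difference of 0.37 ± 0.41 with an interval of -0.62 to 1.36 (limma adjusted p = 1.00). Leaving FA replicate 3 out gave -0.048 ± 0.30 on the log2 scale.

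Leukaemia inhibitory factor, encoded by Lif (ENSMUSG00000034394), acts through Lifr and gp130. The FA tumours measured 11.5, 10.3 and 27.7 TPM and the PBS tumours 12.4, 10.0 and 13.3 TPM. FA replicate 3 held 2.08 times the level of the next highest tumour, while the other 5 lay between 10.0 and 13.3 TPM. Mean Lif was 16.5 ± 9.74 TPM with FA and 11.9 ± 1.70 TPM with PBS (n = 3 per group, SD). The log2 difference of 0.32 ± 0.35 (interval -0.52 to 1.16, limma adjusted p = 1.00) became -0.11 ± 0.14 without FA replicate 3.

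Oncostatin M is a cytokine of myeloid cells, and Osm (ENSMUSG00000058755) was the scarcest member. Osm measured 0.85, 0.56 and 2.24 TPM with FA and 0.86, 0.58 and 1.42 TPM with PBS. The 2 replicates numbered 3 were the highest of their groups, and the groups overlapped. Means of 1.22 ± 0.898 TPM with FA and 0.953 ± 0.428 TPM with PBS (n = 3 per group, SD) gave a log2 difference of 0.13 ± 0.32, interval -0.63 to 0.89 (limma adjusted p = 1.00). Without FA replicate 3 Osm averaged under 1 TPM and was not tested. The other 2 FA tumours averaged 0.705 TPM. Osm and Lif are adjacent protein-coding genes on chromosome 11 in the RefSeq gene order.

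Cardiotrophin-like cytokine factor 1, encoded by Clcf1 (ENSMUSG00000040663), is secreted with a partner protein and signals through the ciliary neurotrophic factor receptor with Lifr and gp130. Clcf1 measured 95.8, 96.3 and 91.6 TPM with FA and 81.7, 86.0 and 86.1 TPM with PBS. Every FA tumour was above every PBS tumour, and the difference between the group means, 94.6 ± 2.57 against 84.6 ± 2.52 TPM (n = 3 per group, SD), was 11.8% of the PBS mean. On the log2 scale it was 0.16 ± 0.06, with an interval of 0.02 to 0.30 and an unadjusted limma p of 0.0349, which became 1.00 after adjustment over 15023 genes. Unlike the other cytokines, Clcf1 was not highest in FA replicate 3, and without that tumour the log2 difference was 0.18 ± 0.05. The groups stayed apart under every alternative run, but only median-ratio rescaling could have made them overlap. The other alternatives left the compared values unchanged or removed a tumour, which cannot make groups that lie apart overlap. With that rescaling the unadjusted limma p was 0.0506. Over all alternatives it ranged from 0.0132 (array weights, whose estimation stopped before convergence) to 0.116. An exon of Clcf1 overlaps the predicted gene Gm45928 on the same strand in GENCODE M21, and Gm45928 was listed at 0 to 0.4 TPM.

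**Figure D2:**
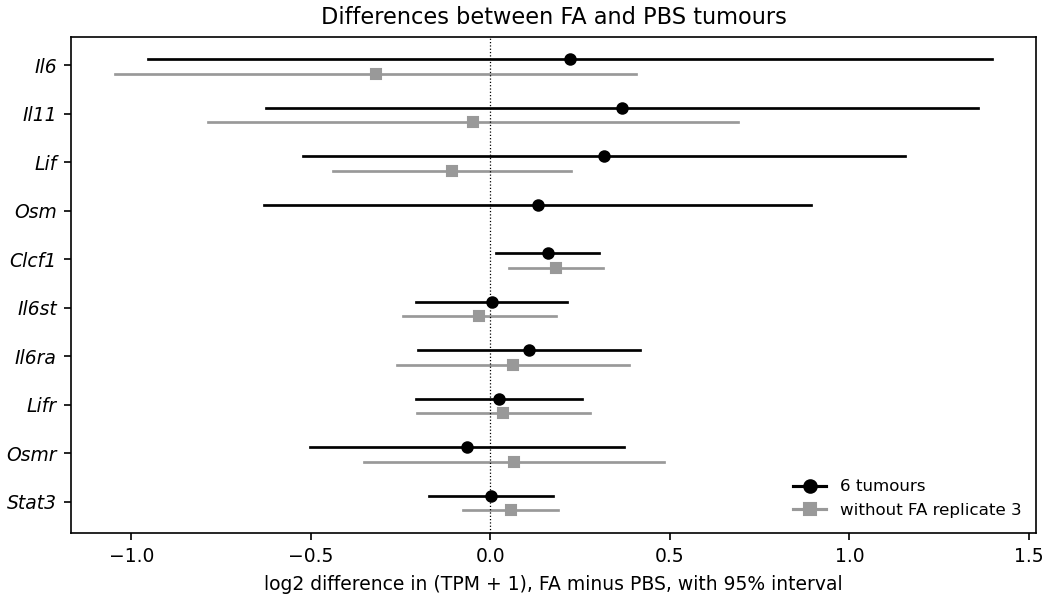
Log2 difference in (TPM + 1), FA minus PBS, with its 95% interval, over all 6 tumours (black circles) and without FA replicate 3 (grey squares; Osm was not tested there). The intervals of Il6, Il11, Lif and Osm are the widest, and that of Clcf1, 0.02 to 0.30, is the 1 interval over 6 tumours that leaves out 0.

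The receptor chains were flatter than the cytokines apart from Clcf1. The shared chain gp130, encoded by Il6st (ENSMUSG00000021756), measured 59.8, 55.2 and 61.9 TPM with FA and 62.7, 60.6 and 53.4 TPM with PBS. The groups overlapped, and the highest and the lowest tumour were both PBS. Its means were 59.0 ± 3.41 and 58.9 ± 4.91 TPM (n = 3 per group, SD), and the log2 difference was 0.0034 ± 0.09 with an interval of -0.21 to 0.21 (limma adjusted p = 1.00).

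Il6ra (ENSMUSG00000027947) encodes the interleukin-6 receptor chain, which is also shed as a soluble form. The levels were 5.15, 5.33 and 5.84 TPM with FA and 5.77, 4.65 and 4.56 TPM with PBS. FA replicate 3 was highest by a small margin over PBS replicate 1, so the groups overlapped. Mean Il6ra was 5.44 ± 0.358 and 4.99 ± 0.674 TPM (n = 3 per group, SD), a log2 difference of 0.11 ± 0.13, interval -0.20 to 0.42 (limma adjusted p = 1.00). Without FA replicate 3 that difference was 0.06 ± 0.13.

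Lifr (ENSMUSG00000054263), the receptor chain for leukaemia inhibitory factor, measured 15.9, 15.7 and 15.4 TPM with FA and 16.5, 16.0 and 13.8 TPM with PBS. The FA tumours all lay inside the PBS range. Means were 15.7 ± 0.275 and 15.4 ± 1.41 TPM (n = 3 per group, SD), and the log2 difference was 0.02 ± 0.10, interval -0.21 to 0.26 (limma adjusted p = 1.00).

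Osmr (ENSMUSG00000022146) encodes the oncostatin M receptor chain and is the protein-coding neighbour of Lifr on chromosome 15. Among the receptor chains taken as members Osmr was the most variable. It measured 31.5, 20.5 and 19.2 TPM with FA and 23.6, 25.4 and 23.9 TPM with PBS. Here the PBS tumours lay inside the FA range: FA replicate 1 was highest and FA replicate 3 lowest of all 6. Means were 23.7 ± 6.79 TPM with FA and 24.3 ± 0.990 TPM with PBS (n = 3 per group, SD). The log2 difference was -0.06 ± 0.18 with an interval of -0.50 to 0.37 (limma adjusted p = 1.00), and 0.07 ± 0.17 without FA replicate 3.

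Stat3 (ENSMUSG00000004040), the transcription factor that all these receptors activate, had the lowest ratio of highest to lowest tumour among the 10 genes. It measured 86.9, 83.0 and 75.6 TPM with FA and 83.4, 81.3 and 80.2 TPM with PBS, so the highest and the lowest tumour were both FA. Means were 81.9 ± 5.74 and 81.7 ± 1.62 TPM (n = 3 per group, SD). The log2 difference was 0.0013 ± 0.07, interval -0.17 to 0.17 (limma adjusted p = 1.00). These are transcript levels and hold no measure of STAT3 phosphorylation. In GENCODE M21 an exon of Stat3 overlaps Stat5a on the other strand, and Stat5a measured 9.54 to 14.1 TPM. Il6ra overlaps the predicted gene Gm42809 on the other strand, which was listed at 0.04 to 0.11 TPM. The libraries were stranded, but whether strand was used in counting is not given in the sources used here.

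Spread between tumours differed widely among the members, and for the variable cytokines much of it came with 1 tumour. The highest tumour exceeded the lowest 5.67-fold for Il6, 4.51-fold for Il11, 4.00-fold for Osm and 2.77-fold for Lif. For Osmr the same ratio was 1.65, for Il6ra 1.28, for Lifr 1.19, for Il6st 1.18 and for Stat3 1.15. Over the other 5 tumours, without FA replicate 3, the ratio was 2.90 for Il6, 2.54 for Osm, 2.33 for Il11 and 1.33 for Lif, below the 1.54 of Osmr. As a measure of spread the SD of log2(TPM + 1) over the 6 tumours was ranked among all 15023 genes, whose median was 0.156. Il6 stood at percentile 96.6, Il11 at 95.6, Lif at 93.7 and Osm at 89.3, whereas Clcf1 stood at 21.8, Il6st at 20.9, Lifr at 15.8 and Stat3 at 8.99. Scarce transcripts vary more on this scale, so the ranking was repeated among genes of like level. Among the 3662 genes of 1 to 5 TPM, Il6 stood at percentile 93.1, Il11 at 91.1 and Osm at 78.2. Lif stood at 93.3 among the 4499 genes of 5 to 20 TPM, and Osmr at 87.7 among the 6862 genes of 20 TPM or more. The flat members stood higher at like level than among all genes, Clcf1 at 35.4, Il6st at 34.1 and Stat3 at 15.8 among those same 6862, with Lifr at 10.6 and Il6ra at 31.3 among genes of 5 to 20 TPM. Ranked among all tested genes without FA replicate 3, which was added after seeing the data, Il6 stood at percentile 94.6, Il11 at 93.8 and Osm at 86.7. Lif moved to 68.7, below Osmr at 81.8, while Clcf1 stood at 44.2, Il6st at 39.5, Lifr at 36.7 and Stat3 at 6.07. Among genes of like level without FA replicate 3, Osmr ranked highest of the members at percentile 94.1. Il6 was at 87.1, Il11 at 85.2, Osm at 69.1 and Lif at 65.4 there. Clcf1 at 66.3 and Il6st at 60.8 came close to Lif and Osm, with Il6ra at 44.6, Lifr at 27.9 and Stat3 at 11.1. The contrast between variable cytokines and flat members was thus weaker without that tumour.

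**Figure D3:**
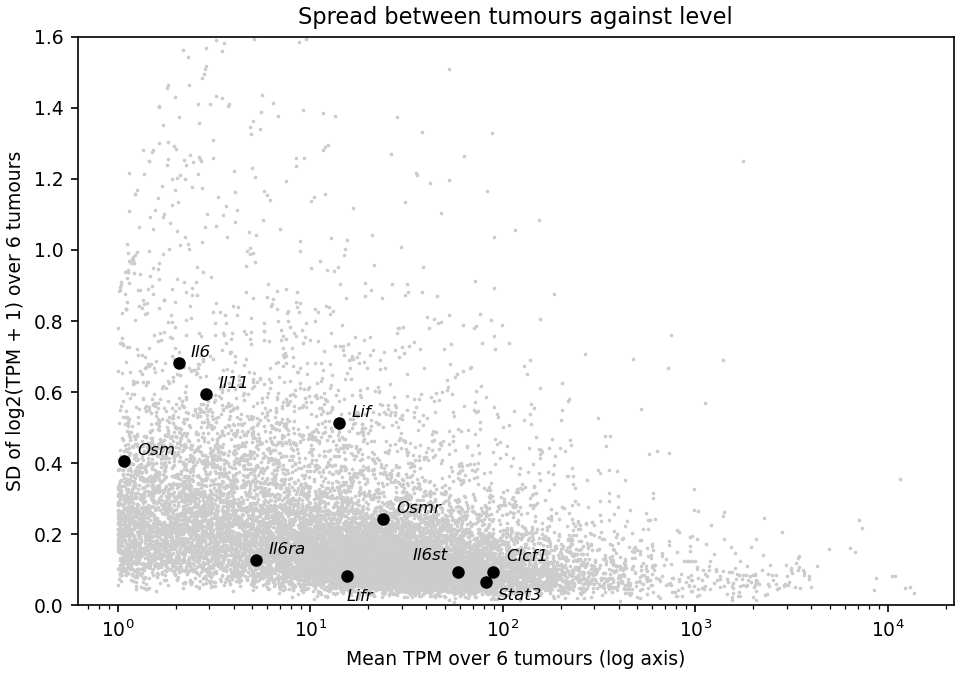
SD of log2(TPM + 1) over the 6 tumours against mean TPM (log axis), for all 15023 tested genes (grey) and the 10 members (black); 75 genes lie above the plotted limit of 1.6. Il6, Il11 and Lif lie in the upper part of the cloud at their level, and Stat3, Lifr, Il6st and Clcf1 in the dense lower part.

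The cytokines that varied did so with the same tumour at the top. FA replicate 3 exceeded the next highest tumour 1.95-fold for Il6, 1.94-fold for Il11, 2.08-fold for Lif and 1.58-fold for Osm. It was the highest tumour for 5 of 10 members, and for 29.4% of all tested genes. As a description over 6 tumours that share this library, Pearson r on log2(TPM + 1) was 0.941 for Lif with Osm, 0.911 for Il6 with Lif, 0.877 for Il11 with Lif and 0.746 for Il6 with Il11. Over the other 5 tumours Lif with Osm was at 0.939, but Il6 with Lif was at 0.599, Il11 with Lif at 0.496 and Il6 with Il11 at 0.106. Among the receptors, Il6st with Lifr stood at 0.772 over 6 tumours and 0.864 over those 5.

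Marker sums of other cell types were highest in FA replicate 3, the tumour where Il6, Il11, Lif and Osm were highest. The fibroblast list summed to 2024, 2525 and 6805 TPM with FA and 3693, 1962 and 2604 TPM with PBS. The macrophage list summed to 550 to 1036 TPM with FA and 530 to 662 TPM with PBS, and the endothelial list to 59.3 to 219 TPM with FA and 64.4 to 101 TPM with PBS, each highest in FA replicate 3. Neutrophil markers, of which 3 of 6 averaged at least 1 TPM, summed to 16.1 to 40.3 TPM with FA and 16.3 to 17.5 TPM with PBS, with Ly6g listed at 0 in 5 of the 6. Skeletal muscle markers summed to 12.7 to 1154 TPM with FA and 14.4 to 167 TPM with PBS. PBS replicate 1 had the second highest fibroblast, macrophage, endothelial and skeletal muscle sums. Il6 was also second highest in that tumour, while Il11, Lif and Osm were not. Il11, Lif and Osm were second highest in PBS replicate 3. That tumour had the lowest macrophage sum of all 6, 530 TPM, and a fibroblast sum of 2604 TPM. T and NK lymphocyte markers were scarce, with 8 of 9 under a mean of 1 TPM. The part of these cell types in the levels of Il6, Il11, Lif and Osm was not tested.

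**Figure D4:**
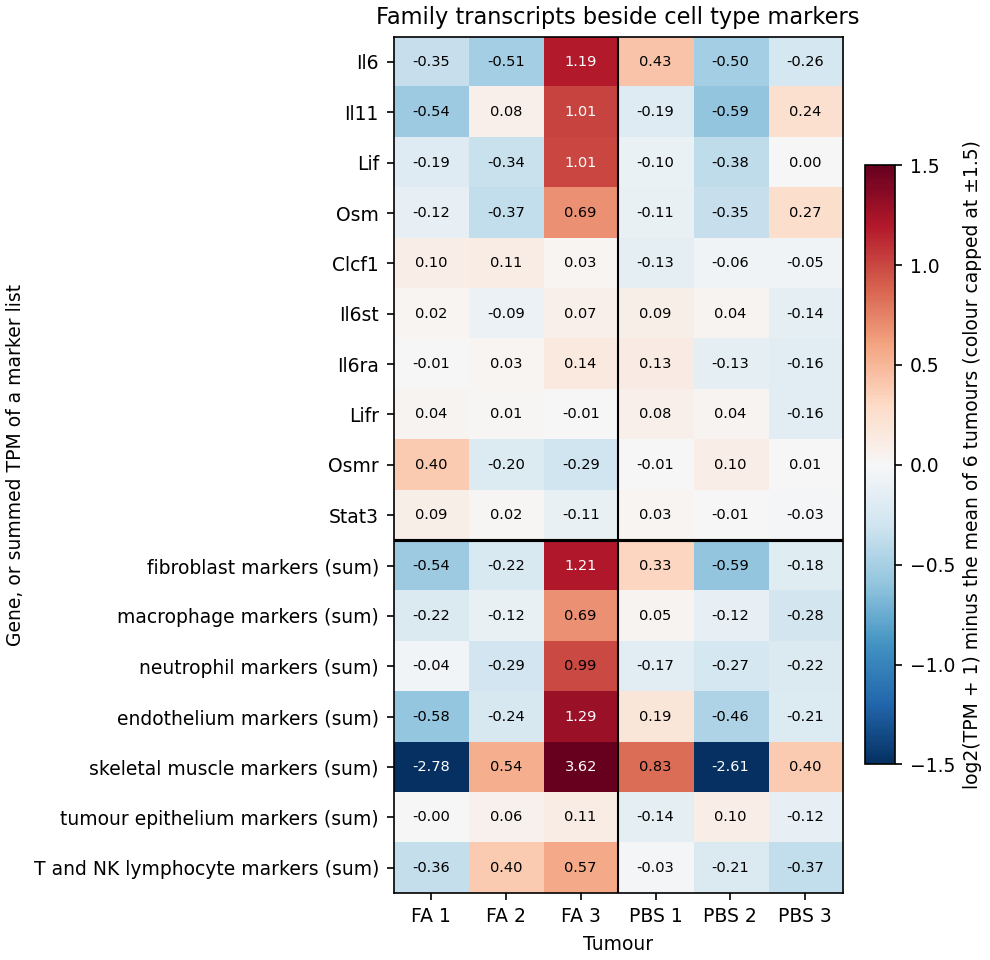
Each cell gives log2(TPM + 1) of a gene, or of the summed TPM of a marker list, minus its mean over the 6 tumours (colour capped at 1.5 either way). Il6, Il11, Lif and Osm are 0.69 to 1.19 above their means in FA replicate 3, while Stat3 there is at -0.11. Marker sums in that tumour are above their means by 3.62 for skeletal muscle, 1.29 for endothelium, 1.21 for fibroblasts and 0.99 for neutrophils. For macrophages the value is 0.69, for T and NK lymphocytes 0.57 and for tumour epithelium 0.11.

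The genes most like each member over the 6 tumours, on the same scale and among genes of at least 5 TPM and leaving out predicted genes, are named for each. Lif was most like Rgcc (r = 0.998), Slc39a14 (0.996) and Eno3 (0.992), and Il6 was most like Psma7 (0.998), Rasa4 and Tubb4b. For Il6, 270 genes exceeded r = 0.95, for Lif 184 and for Il11 109, of which Mrpl10 (0.992), Cables2 and Gps1 led. Osm was closest to Epn2 (0.992), Trappc3 and Gnl1. Clcf1 had 1 gene above that mark, Nmnat1 (0.966), followed by Nol4l (0.945) and Pnkd (0.932). Among the receptors, Il6st was closest to Tsen15 (0.984), Nrd1 and Phf7, Il6ra to Med16 (0.985), Zfp948 and Klhl20, Lifr to Rabgap1l (0.995), Pdf and Rrm2b, and Osmr to Mcts1 (0.993), Ccdc68 and Pfkfb3. Stat3 was closest to Lats1 (0.997), Mettl6 and Ldlrad4. Without FA replicate 3 the number of genes above r = 0.95 was 138 for Il6, 71 for Il11, 67 for Lif and 52 for Clcf1, and r of Lif with Eno3 was 0.894. These genes were picked as the highest of 10545 or 10546 candidates over 6 points and are a description only.

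The rest of the pathway was followed in lists of other family members, signal relay, receptor shedding and STAT3 targets, with upstream inducers and fibroblast genes given further on. Of 66 genes in the 6 lists, 58 were tested, and limma called 0 of them at an adjusted p under 0.05. At an unadjusted p under 0.05 there was 1 (1.72% of 58), and 3 (5.17%) had groups that did not overlap, near the 1.28% and 4.69% of all tested genes.

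Other cytokines and receptors of the family split evenly, 3 with a higher and 3 with a lower FA mean on the log2 scale among 6 tested of 12, with a median log2 difference of -0.0081. Il11ra1, the receptor chain that pairs interleukin-11 with gp130, was the most abundant of them at 46.5, 46.7 and 88.4 TPM with FA and 66.9, 50.2 and 54.0 TPM with PBS. It was highest in FA replicate 3. Cntfr, the receptor chain through which Clcf1 acts, was listed at 0.26 to 1.13 TPM. Il27ra measured 1.41 ± 0.678 and 0.847 ± 0.155 TPM and Ebi3, a subunit of interleukin-27, 2.12 ± 0.697 and 1.99 ± 0.385 TPM in FA and PBS tumours (n = 3 per group, SD). Cntf was at 4.56 ± 1.16 and 5.05 ± 0.627 TPM and Ctf1 at 4.40 ± 1.39 and 5.02 ± 2.18 TPM. Il31 was listed at 0 in all 6 tumours.

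In the relay below gp130, 8 of 14 tested genes had a higher and 6 a lower FA mean, with a median log2 difference of 0.0088. The kinases were flat: Jak1 was at 55.3 ± 5.27 and 55.0 ± 6.42 TPM, Jak2 at 51.1 ± 3.07 and 50.7 ± 2.32 TPM, and Tyk2 at 21.6 ± 0.340 and 20.4 ± 0.769 TPM in FA and PBS tumours (n = 3 per group, SD). Ptpn6, a phosphatase of blood cells that dampens such signals, stood at 26.8 ± 4.69 and 21.9 ± 2.23 TPM, and Pias3, an inhibitor of STAT3, at 31.3 ± 6.75 and 35.5 ± 1.36 TPM. The proteases that shed Il6ra varied little: Adam17 was at 37.6 ± 1.39 and 36.3 ± 0.187 TPM and Adam10 at 71.6 ± 7.92 and 75.4 ± 1.90 TPM. Rhbdf1 and Rhbdf2, which carry Adam17 to the cell surface, were at 45.2 ± 4.87 and 40.1 ± 1.59 TPM and at 24.5 ± 2.46 and 22.3 ± 1.23 TPM. The 4 shedding genes had a median log2 difference of 0.09.

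Of the 18 STAT3 target genes, all tested, 16 had a higher FA mean on the log2 scale and 2 a lower one, with a median of 0.13 beside 0.0016 over all genes. FA replicate 3 was the highest tumour for 13 of the 18, and without it the median was -0.018. Socs3, the feedback inhibitor of gp130, measured 39.6, 36.2 and 65.3 TPM with FA and 38.8, 41.4 and 36.5 TPM with PBS, highest where Il6, Il11, Lif and Osm were highest. Timp1, an inhibitor of matrix proteases, likewise measured 165, 176 and 582 TPM with FA and 265, 158 and 258 TPM with PBS. The acute-phase genes Saa3 and Lcn2 went opposite ways in that tumour. Saa3 measured 6.89, 30.0 and 299.9 TPM with FA and 36.3, 20.3 and 65.6 TPM with PBS. Lcn2 measured 156, 59.1 and 11.3 TPM with FA and 73.8, 135.8 and 92.8 TPM with PBS.

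The groups of Myc and Junb, growth and immediate early genes, did not overlap. Myc measured 117, 124 and 159 TPM with FA and 115, 98.5 and 109.6 TPM with PBS, and the log2 difference was 0.29 ± 0.13 (limma adjusted p = 1.00), and 0.16 ± 0.08 without FA replicate 3. Junb measured 179, 184 and 243 TPM with FA and 163, 166 and 177 TPM with PBS, and the log2 difference was 0.24 ± 0.12 (limma adjusted p = 1.00), and 0.10 ± 0.06 without FA replicate 3. For both genes the highest PBS tumour lay within 2 TPM of the lowest FA tumour. Bcl3, a co-factor of NF-kB, was at 66.9 ± 2.54 and 61.6 ± 3.74 TPM and Pim1, a survival kinase, at 39.5 ± 5.73 and 37.9 ± 2.85 TPM in FA and PBS tumours (n = 3 per group, SD).

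**Figure D5:**
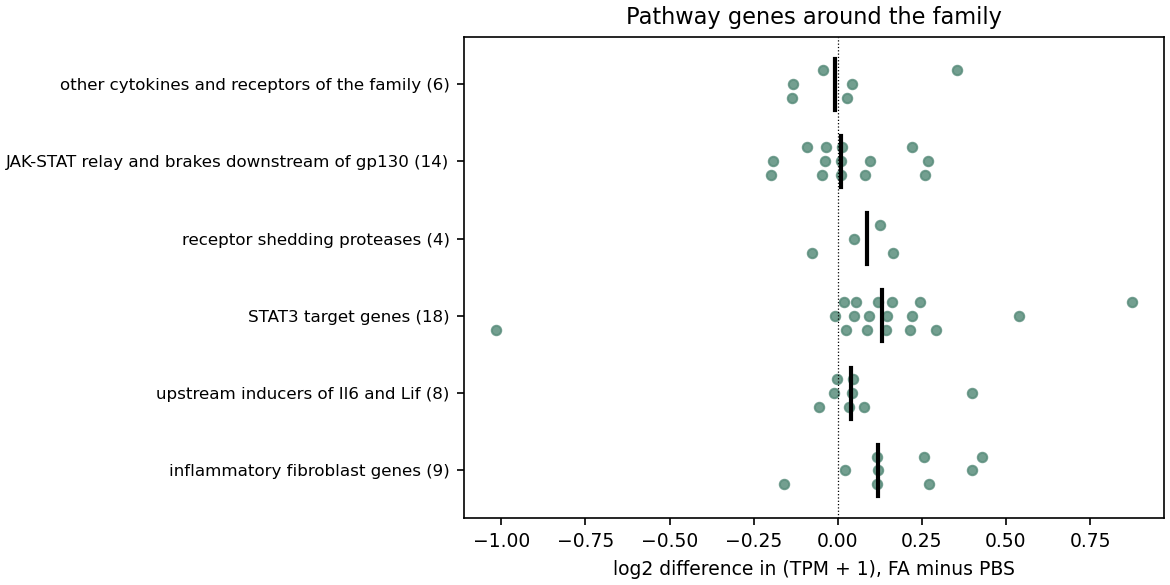
Log2 difference in (TPM + 1), FA minus PBS, of each tested gene in 6 pathway lists (points; number tested in brackets), with the list median as a vertical bar. The medians run from -0.0081 for other family members to 0.13 for STAT3 targets, where the points reach from -1.02 for Lcn2 to 0.87 for Hp. Without FA replicate 3, which is not drawn, these differences were -0.021 for Lcn2 and 0.083 for Hp.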

How the data were processed

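Expression values were TPM in 1 table deposited by the authors, with 55357 Ensembl genes. FastQC, STAR, featureCounts and RSEM are named in the submitters' processing notes. Their versions and roles, the build and the annotation were not given in the sources used here. Per the labels' protocols, 4 µg of RNA with an integrity number above 8 entered each stranded total RNA library, with 12 PCR cycles. TPM keeps no depth, so reads per value are unknown and no counting interval or floor is given. Each tumour had 23858 to 25669 genes above 0.

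The log2(TPM + 1) values of the 15023 genes averaging at least 1 TPM were fitted with limma 3.58.1 in R 4.3.3, with treatment as the 1 term and moderated variances that allow for a trend with level. P-values are two-sided, adjusted by the Benjamini-Hochberg method over all genes tested, with a threshold of 0.05. The pseudocount of 1 understates the change of scarce genes such as Osm and Il6. The fit was tested on simulated data. Figures were drawn with matplotlib 3.10.9.

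Members were matched by the table's symbols, and columns through the sample descriptions. The members and gene lists were chosen with earlier results of these data known. Named genes are all members, up to 3 genes of each pathway list with the smallest unadjusted p, 18 further pathway genes listed by name, and the 3 genes most correlated with each member, leaving out predicted genes and pseudogenes. Some genes taken by the rule are not reported here. Any other gene named was chosen after its values were seen. Promoter windows are RefSeq's on GRCm38.p6, searched on both strands, and exon overlaps and gene order were looked up in GENCODE M21 and RefSeq by gene ID or symbol. Alternatives were leaving out each tumour in turn, a pseudocount of 0.1, no filter, a filter at 5 TPM, rescaling by median ratios, limma's array weights, a block for the replicate number, and a threshold of 0.1 on the adjusted p.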

Additional observations from a re-analysis of the deposited data

How the results depend on the processing

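No member passed the adjusted threshold of 0.05 or 0.1 under any alternative run, and of 116 values of single members under alternatives 94 kept their sign and 22 reversed. Over all genes 2 were called with no filter (Gm24045 and Gm22728) and 0 to 1 when a tumour was left out (Snord14d without FA replicate 3). Members whose groups did not overlap numbered 1 to 2 when a tumour was left out. Of all tested genes, 9.71% to 18.7% did not overlap there. Clcf1 was among these members each time, which was fixed in advance, as leaving a tumour out cannot make separate groups overlap. It was joined by Osmr without FA replicate 1, by Il6ra without PBS replicate 1 and by Lifr without PBS replicate 3. Leaving out each tumour in turn moved the log2 difference from -0.32 to 0.53 for Il6, -0.048 to 0.73 for Il11, -0.11 to 0.56 for Lif, -0.010 to 0.35 for Osm, -0.065 to 0.050 for Il6st, -0.048 to 0.070 for Lifr, -0.28 to 0.066 for Osmr and -0.043 to 0.056 for Stat3. Array weights, whose estimation stopped before convergence, gave -0.20 for Il6, -0.015 for Il11, -0.045 for Lif, -0.18 for Osm, -0.0026 for Il6st and 0.019 for Osmr. Median-ratio rescaling gave -0.00051 for Il6st and -0.0027 for Stat3. The causes of these reversals were not tested, and the reversed values lay within the 95% intervals of the values over 6 tumours. Without FA replicate 3 Osm was under the filter, and at a mean of at least 5 TPM Il6, Il11 and Osm had no value.

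Deviations from the group means correlated at -0.208, 0.0533 and -0.0221 between tumours with the same replicate number. Within a group of 3 such deviations sum to 0, so these values cannot show whether the tumours were paired. The numbers are not read as pairs in the main fit, and a block for them was run as an alternative. With the replicate block the log2 difference of Clcf1 was 0.16 with an unadjusted limma p of 0.0783, and the count of called genes was 0 with and without the block.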

Other observations

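Genes upstream of the family were followed in a list of 9 inducers of Il6 and Lif, of which 8 were tested and limma called 0, with 0 at an unadjusted p under 0.05. Their median log2 difference between FA and PBS tumours was 0.04, and -0.07 without FA replicate 3. Il1a, an alarm cytokine of epithelial cells, measured 3.51, 4.81 and 12.5 TPM with FA and 4.84, 3.99 and 4.29 TPM with PBS, so that it was highest in FA replicate 3 as Il6, Il11, Lif and Osm were. Il1b stood at 12.4 ± 6.90 TPM with FA and 11.5 ± 2.22 TPM with PBS (n = 3 per group, SD) and was also highest in FA replicate 3. Their shared receptor Il1r1 was at 29.7 ± 5.97 and 27.9 ± 3.35 TPM. Rela, a subunit of NF-kB, was at 87.1 ± 2.73 and 90.5 ± 3.15 TPM.

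Of 10 genes known from inflammatory fibroblasts, 9 were tested and 0 were called by limma, with 0 at an unadjusted p under 0.05. FA replicate 3 was highest for 8 of the 9, and the list's median log2 difference was 0.12 over 6 tumours and -0.24 without that tumour. Pdgfra, a receptor that marks fibroblasts, measured 5.75, 11.2 and 18.7 TPM with FA and 10.3, 5.98 and 7.39 TPM with PBS. The chemokine gene Cxcl12 measured 13.1, 31.8 and 85.4 TPM with FA and 55.8, 22.2 and 22.8 TPM with PBS. Its log2 difference was 0.12 over 6 tumours and -0.55 without FA replicate 3. Ccl2, which draws monocytes, was at 22.3 ± 13.1 and 18.4 ± 10.2 TPM and Cxcl1, which draws neutrophils, at 1.52 ± 2.05 and 0.573 ± 0.261 TPM (n = 3 per group, SD). The lowest and highest tumour for Cxcl12 were both FA, a wider span than in the PBS group.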
